A study of Mus musculus with 10 samples.

Results

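The 10 genes described here encode receptors and regulators of natural killer (NK) cells and were chosen by name: Ncr1, Klrb1c, Klrk1, Klrd1, Klrc1, Klre1, Klrg1, Eomes, Tbx21 and Xcl1. They are 10 of the 37417 genes in a table of RNA-seq counts from 10 mouse tumors, and all 10 were among the 15299 genes that passed the filter on low counts. The tumors grew subcutaneously (s.c.) from Panc02 cells, a mouse pancreatic cancer line, in C57BL/6J mice that were 12 weeks old, and were taken on day 16 after injection. In 5 tumors the injected cells carried a nontargeting guide RNA (sgNT) and in 5 they carried a guide that targets the cytidine deaminase gene, Cda (sgCda). The cancer cells of both groups were selected populations with a doxycycline-inducible Cas9, and the host mice were not edited. The comparison asks whether the NK cell transcripts of a tumor differ when its cancer cells carry the Cda guide.

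NK cells are innate lymphocytes that kill target cells without an antigen receptor of their own. Whether they do so depends on the balance between activating receptors, which read stress ligands on the target, and inhibitory receptors, which read major histocompatibility complex (MHC) class I molecules. Most of the genes named here are not restricted to NK cells: activated CD8+ T cells also make NKG2D (Klrk1), CD94 (Klrd1), NKG2A (Klrc1), KLRG1, T-bet (Tbx21), EOMES and the chemokine XCL1. NKp46 (Ncr1) and NK1.1 (Klrb1c) are the receptors most often used to mark NK cells in C57BL/6 mice, and the study gated tumor NK cells by NKp46.

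Levels are given as CPM, read counts relative to the scaled library size (edgeR), and 3 counts, taken as the smallest level that a library shows, were worth 0.0754 to 0.106 CPM. Libraries held 28051907 to 39484964 assigned counts. In whole-tumor RNA, fewer cells of a type and less RNA per cell cannot be told apart. The labels number the tumors within a group and do not name the mice, so p values measure the spread between these tumors. Cda itself ran from 10.1 to 14.7 CPM in sgNT tumors and from 7.47 to 12.5 CPM in sgCda tumors, and the groups overlapped (log2 fold change −0.30, SE 0.17, edgeR unadjusted p = 0.0963). Host cells of a tumor can express Cda too, so this level does not measure editing of the cancer cells. Genes taken here as NK cell markers had counts in every tumor, with Klra8 at 0.790 to 1.67 CPM and Klra9 at 0.442 to 1.49 CPM beside Ncr1, Klrb1c, Klre1 and Eomes. Whether NK cells made these transcripts was not tested. The Ly49 gene Klra4 stood far higher, at 56.6 to 104 CPM, and counts within the Ly49 family are uncertain because its members are near copies.

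To compare levels between genes, counts were divided by the length of all annotated exons. On this scale, CPM per kilobase, CD94 (Klrd1) was the most abundant of the 10 genes at 49.7 ± 21.6 (SD, n = 10 tumors), followed by Xcl1 at 23.8 ± 7.42. Klrc1 stood at 16.7 ± 7.93, Klrk1 at 8.52 ± 2.83 and Tbx21 at 4.41 ± 1.58. The 5 lowest were Klrg1 at 3.47 ± 1.17, Klre1 at 2.83 ± 1.02, Ncr1 at 1.88 ± 0.632, Klrb1c at 1.76 ± 0.529 and Eomes at 0.972 ± 0.323. Genes that activated T cells share with NK cells took the upper 6 places, Eomes the last, and both common NK cell markers lay among the lowest 3. Neighbours in this order overlapped in their ranges, as for Klrg1 (1.88 to 5.14) and Klre1 (1.76 to 5.19), or Ncr1 (0.800 to 3.16) and Klrb1c (0.779 to 2.66). The values of Klrk1 rest on 7183 bases of exon from all annotated isoforms and are a lower estimate if tumors use the shorter ones.

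**Figure D1:**
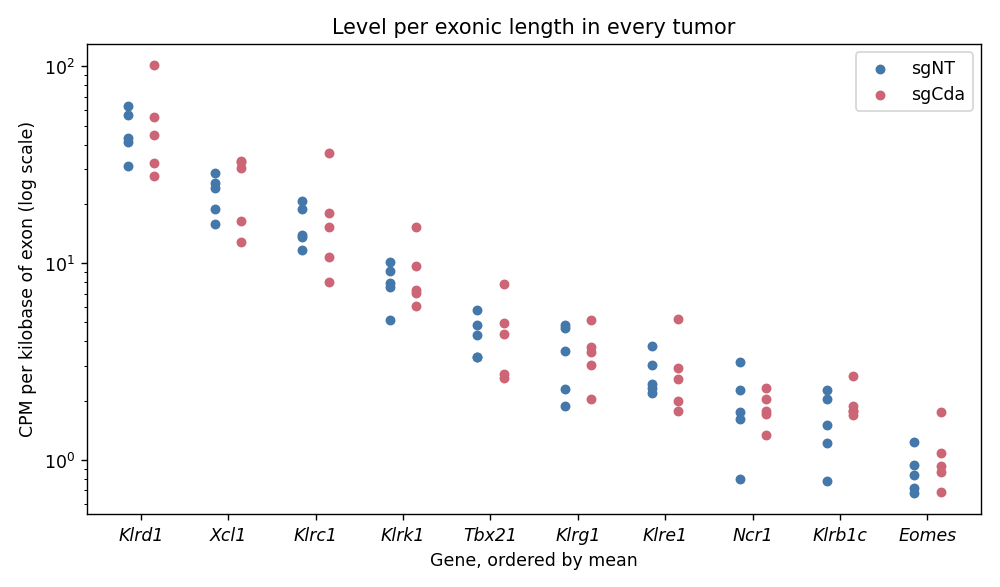
Level of each gene in every tumor, in CPM per kilobase of annotated exon on a log axis, with genes in the order of their mean and 1 point per tumor (5 sgNT, 5 sgCda). Klrd1 runs from 27.6 to 101.5 and Eomes from 0.682 to 1.74, and the colours of both groups mix in every gene.

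None of the 10 genes passed the test for a difference between the groups. By edgeR's quasi-likelihood test, 0 of 10 passed an adjusted p under 0.05, against 0% of all 15299 genes tested (0 genes). At an unadjusted p under 0.05, 0 of 10 passed, against 2.5% of all genes (382). The smallest unadjusted p among the 10 was 0.255, for Klrb1c. In 0 of 10 did the 5 sgCda values lie clear of the 5 sgNT values, against 0.601% of all genes. DESeq2 and limma-voom also called 0 of the 10. The mean was higher in sgCda for 9 of the 10 and lower for 1, with a median log2 fold change of 0.15, against 0.0078 over all genes tested, of which 52.9% had a positive value. That median turned to −0.12 without sgCda replicate 3.

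The activating receptors come first. NKp46 (Ncr1, chr7:4337724-4345164, plus strand, GRCm38), which signals through the adaptors CD3ζ and FcRγ, measured 2.49, 1.23, 2.70, 4.87 and 3.49 CPM in sgNT replicates 1 to 5 and 3.15, 2.07, 2.63, 3.58 and 2.72 CPM in sgCda replicates 1 to 5. All 5 sgCda tumors lay inside the sgNT range, whose ends were sgNT replicates 2 and 4. The means were 2.96 ± 1.34 and 2.83 ± 0.569 CPM (SD, n = 5 each), and the log2 fold change was −0.07 (SE 0.31, edgeR unadjusted p = 0.835). Its 95% confidence interval, −0.75 to 0.62, spans a level 40.5% lower to 53.2% higher. These values rest on 39 to 155 counts per tumor, the fewest of the 10 genes.

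NK1.1 (Klrb1c, chr6:128778485-128789215, minus strand), an activating lectin-like receptor, measured 3.61, 2.31, 6.08, 6.75 and 4.45 CPM in the sgNT group and 5.02, 5.28, 7.89, 5.24 and 5.54 CPM in sgCda tumors. All 5 sgCda values were above the sgNT mean, 4 of them within the sgNT range. The log2 fold change, 0.32 (SE 0.27, 95% confidence interval −0.27 to 0.91), was the largest of the 10 and did not pass the test. Leaving out 1 tumor gave 0.15 (sgNT replicate 2) to 0.49 (sgNT replicate 4), with 0.18 without sgCda replicate 3. Of the 50-base words in its transcripts, 17.0% also occur in Klrb1a, Klrb1b or an overlapping gene model, Gm44511, so part of its reads could be lost or shared. Its inhibitory relative Klrb1b stood at 30.8 ± 4.11 CPM in the sgNT group and 35.6 ± 11.5 CPM in sgCda tumors.

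NKG2D (Klrk1, chr6:129610323-129623864, minus strand) binds the stress ligands of the RAE-1, H60 and MULT1 families. It measured 57.0, 36.8, 73.0, 65.4 and 54.5 CPM in sgNT tumors and 52.3, 69.1, 109.8, 50.5 and 43.8 CPM in sgCda tumors. Here 1 sgCda tumor, replicate 3, stood above all others and the other 4 lay within the sgNT range. The log2 fold change was 0.18 (SE 0.25, 95% confidence interval −0.37 to 0.74) and turned to −0.09 without that tumor.

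**Figure D2:**
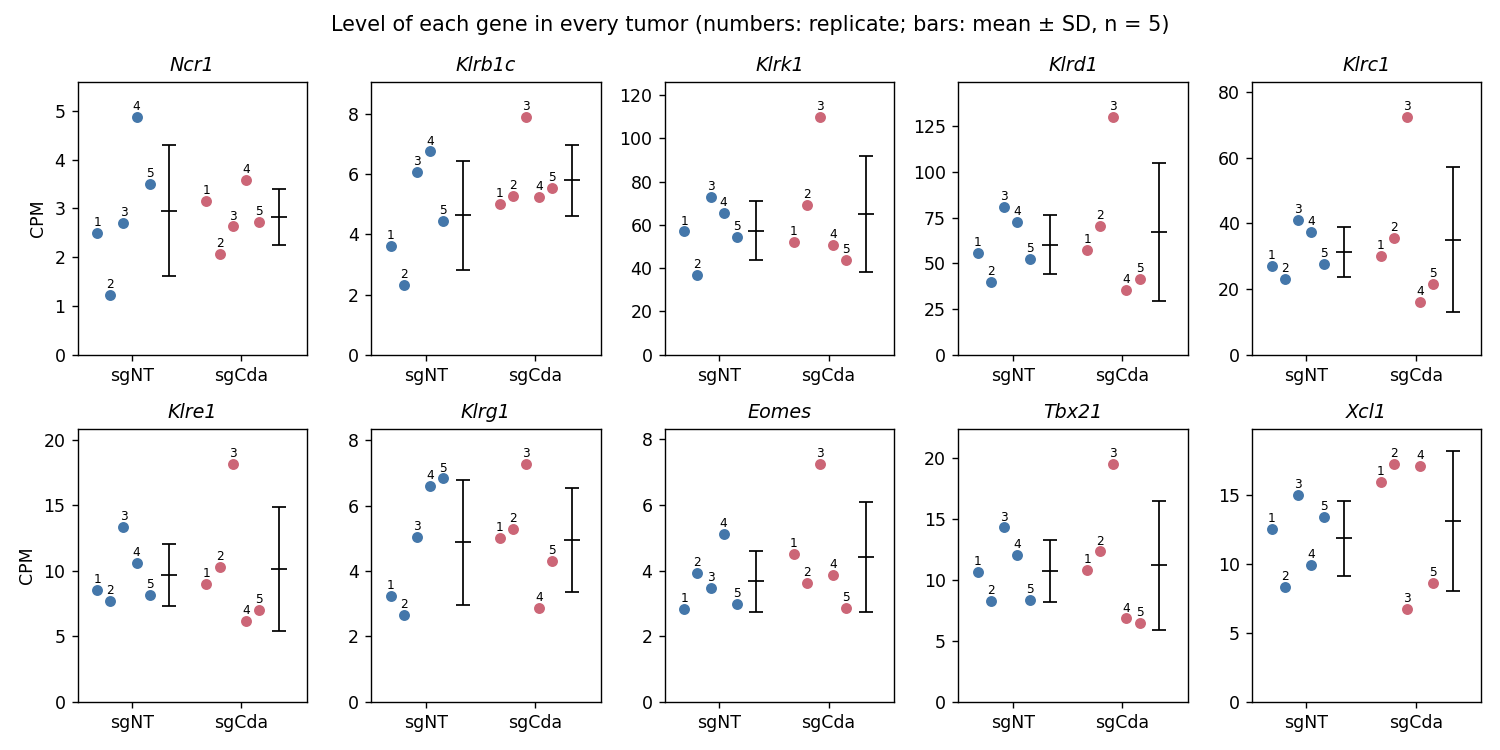
CPM of each of the 10 genes in every tumor, with sgNT in blue, sgCda in red, replicate numbers beside the points and mean ± SD (n = 5) as bars. The groups overlap in all 10 panels, and sgCda replicate 3 is the highest point in 8 of them.

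CD94 (Klrd1, chr6:129591782-129598775, plus strand) is the shared subunit of the NKG2 heterodimers, and NKG2A (Klrc1, chr6:129666015-129678973, minus strand) is the partner that makes the pair inhibitory. They recognise Qa-1b, encoded by H2-T23. Klrd1 measured 55.6, 40.1, 80.8, 72.7 and 52.5 CPM in the sgNT group and 57.4, 70.6, 130.0, 35.4 and 41.5 CPM in sgCda tumors. Klrc1 measured 26.9, 23.2, 41.0, 37.4 and 27.5 CPM in the sgNT group and 30.1, 35.5, 72.2, 15.9 and 21.4 CPM in sgCda tumors. For both, sgCda replicate 3 was the highest and sgCda replicate 4 the lowest of the 10 tumors, so the sgCda group reached beyond the sgNT group at both ends. The Klrc1 values spanned 4.54-fold among sgCda and 1.77-fold among sgNT tumors. The log2 fold change was 0.15 for Klrd1 (SE 0.33, 95% confidence interval −0.57 to 0.87) and 0.17 for Klrc1 (SE 0.35, −0.61 to 0.94). Without sgCda replicate 3 they turned to −0.24 and −0.28.

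The subunits kept close proportions while their levels moved. Klrc1 over Klrd1, per kilobase of exon, lay between 0.290 and 0.373 in all 10 tumors, with a median of 0.333, and the ranges of the groups overlapped. NKG2C (Klrc2), the activating partner of CD94, was the exception in 1 tumor. Klrc1 over Klrc2 was 8.71 in sgCda replicate 4 and 20.8 to 29.6 in the other 9. In that tumor Klrc2 stood at 5.35 CPM, the second highest of the 10, while Klrc1 was at its lowest. Klrc1 shares 38.6% of its 50-base words with Klrc2 or Klrc3, so the size of these ratios is uncertain. That library also had the highest share of reads outside annotated genes, 18.4% against 10.3% to 14.9% in the others, and the part of this in the ratio was not tested.

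KLRE1 (Klre1, chr6:129577905-129585827, plus strand) pairs with KLRI1 to form an inhibitory receptor and with KLRI2 to form an activating one. Klre1 measured 8.50, 7.68, 13.3, 10.6 and 8.14 CPM in the sgNT group and 9.01, 10.3, 18.1, 6.16 and 6.99 CPM in sgCda tumors. As with Klrd1 and Klrc1, sgCda replicates 3 and 4 were the extremes. The log2 fold change was 0.07 (SE 0.28), and −0.25 without sgCda replicate 3. Its partners Klri1 and Klri2 had log2 fold changes of 0.13 (SE 0.25) and 0.07 (SE 0.22), neither past the test.

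KLRG1 (Klrg1, chr6:122270596-122282882, minus strand) is an inhibitory receptor for cadherins that marks mature NK cells and short-lived effector T cells. It measured 3.24, 2.65, 5.05, 6.60 and 6.84 CPM in the sgNT group and 5.02, 5.28, 7.27, 2.87 and 4.30 CPM in sgCda tumors. The sgNT values fell into a lower pair and 3 higher ones, and 4 of 5 sgCda values lay between their ends. The log2 fold change, 0.02 (SE 0.31), was the smallest of the 10 in size and turned to −0.16 without sgCda replicate 3. Klrb1c, Klrk1, Klrd1, Klrc1, Klre1 and Klrg1 all lie on chromosome 6, where mice carry the NK gene complex. Klrg1 starts at 122270596, apart from the others, which start between 128778485 and 129666015.

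The T-box factors T-bet and EOMES drive NK cell maturation and the cytotoxic program of CD8+ T cells. T-bet (Tbx21, chr11:97098071-97115331, minus strand) measured 10.7, 8.28, 14.3, 12.1 and 8.34 CPM in the sgNT group and 10.8, 12.3, 19.5, 6.84 and 6.46 CPM in sgCda tumors. The lowest pair and the highest tumor were all sgCda. EOMES (Eomes, chr9:118478212-118486132, plus strand) measured 2.83, 3.92, 3.47, 5.12 and 2.99 CPM in the sgNT group and 4.49, 3.62, 7.25, 3.86 and 2.85 CPM in sgCda tumors. Apart from sgCda replicate 3, every sgCda value of Eomes lay within the sgNT range. The log2 fold changes were 0.06 for Tbx21 (SE 0.29), which turned to −0.23 without sgCda replicate 3, and 0.27 for Eomes (SE 0.26), which came to 0.02. Eomes over Tbx21, per kilobase of exon, ran from 0.145 to 0.283 in sgNT and from 0.175 to 0.338 in sgCda tumors.

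XCL1 (Xcl1, chr1:164931644-164935527, minus strand) is the chemokine by which NK and CD8+ T cells attract dendritic cells that carry its receptor XCR1. It measured 12.5, 8.31, 15.004, 9.89 and 13.4 CPM in the sgNT group and 15.9, 17.2, 6.69, 17.1 and 8.61 CPM in sgCda tumors. In sgCda, 3 tumors lay above all sgNT values and 1 below them. The lowest was replicate 3, the tumor in which 8 of the other 9 genes were at their highest. The log2 fold change was 0.15 (SE 0.27, 95% confidence interval −0.45 to 0.75). Of its exons, 18.7% lie opposite exons of Gm20743, and the strand setting of the counting was not given in the sources used here, so reads of the pair may not be separated.

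Tested across the 10 tumors, the 95% intervals leave room for sizeable differences: for Klrc1, the widest, from 34.3% lower to 92.2% higher in sgCda, and for Klrk1, the narrowest, from 22.8% lower to 67.0% higher. A two-sided exact permutation test on log2 CPM over all 252 assignments of the tumors gave p = 0.246 to 1 for the 10 genes, where the smallest p it can give is 0.00794. Skeletal muscle transcripts moved with several of these genes. The summed level of the 8 muscle genes measured (Acta1, Ckm, Myh4 and others) was 298 to 2052 CPM in sgNT replicates 3 and 4 and sgCda replicates 1, 2 and 3, and 5.35 to 34.01 CPM in the other 5 tumors. The 10 NK genes summed to 193 to 381 CPM in the former and 134 to 183 CPM in the latter. Within both sets the groups overlapped in the mean log2 CPM of the 10 genes, with 3.76 to 3.80 in sgNT and 3.56 to 4.14 in sgCda at higher muscle, and 2.92 to 3.45 and 3.15 to 3.21 at lower muscle. With the muscle level as a covariate, added after seeing the data, 0 of 10 genes passed and 6 changed sign, Klrk1 (−0.03), Klrd1 (−0.16), Klrc1 (−0.18), Klre1 (−0.17), Klrg1 (−0.14) and Tbx21 (−0.23).

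**Figure D3:**
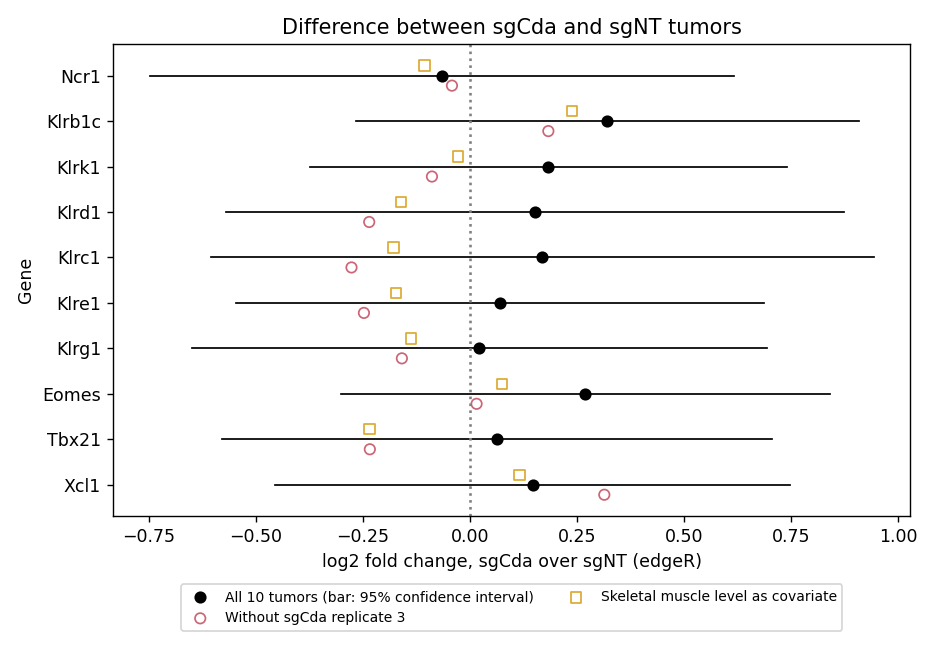
Log2 fold change of sgCda over sgNT for each gene (black, with its 95% confidence interval, edgeR, 10 tumors), without sgCda replicate 3 (red circles) and with the skeletal muscle level as covariate (yellow squares). All intervals include 0. Klrk1, Klrd1, Klrc1, Klre1, Klrg1 and Tbx21 lie above 0 over all 10 tumors and below 0 in both alternatives. Ncr1 lies below 0 in each setting.

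The 10 genes varied more between tumors than most genes did. The SD of log2 CPM over the 10 tumors was 0.42 (Eomes) to 0.60 (Klrc1), against a median of 0.20 over all genes tested. Of the 45 pairs among the 10 genes, 7 had a Pearson r over 0.9 across the tumors, the highest being Klrd1 with Klrc1 (0.99). The 8 pairs below 0 were those of Xcl1 with every other gene except Ncr1. These pairs share libraries and tumors and are given as a description.

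To relate each gene to T cells, its log2 CPM was compared with the mean log2 CPM of 16 T cell genes (CD3 subunits, CD4, CD8 and T cell receptor constant genes among them), which is called the T cell level. Over 10 tumors, 19 relations were computed, 10 with the T cell level and 9 with Ncr1, with permutation p values adjusted over all 19. T-bet followed the T cell level most closely (r = 0.97, rho = 0.99, both permutation p = 2e-05, adjusted p = 0.00038). Klre1 (r = 0.96, rho = 0.95), Klrc1 (r = 0.94, rho = 0.94) and Klrd1 (r = 0.93, rho = 0.93) came next, each with an adjusted permutation p of 0.000902 for r, and Klrk1 had r = 0.87 and rho = 0.89 (adjusted permutation p = 0.00665). All 5 also passed as deviations from their group means, with r of 0.87 to 0.97. After leaving out sgCda replicates 3 and 5, farthest from the median T cell level, r stayed at 0.92 for Tbx21, 0.93 for Klre1, 0.90 for Klrc1 and 0.88 for Klrd1, with adjusted exact p of 0.0160 to 0.0192. The relation of Klrk1 rested on those tumors (r = 0.67, adjusted exact p = 0.263), and without sgCda replicate 3 alone its r was 0.72 (adjusted exact p = 0.0864). The T cell list includes Cd247 and Cd2, which NK cells also make. With the 9 markers Cd3e, Cd3d, Cd3g, Cd8a, Cd8b1, Cd4, Trac, Cd5 and Cd6 alone, a choice made after seeing the data, the same 5 genes had r of 0.84 to 0.96. The mean log2 CPM of 6 pan-leukocyte genes had its extremes in the same tumors as the T cell level. It was 8.64 in sgCda replicate 3, the highest, and 7.90 in sgCda replicate 5, the lowest. The mean of 11 macrophage genes was highest in sgCda replicate 3 (7.64) and lowest in sgCda replicate 4 (7.13). Whether the 5 genes followed T cells more closely than leukocytes or macrophages was not tested.

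The remaining 5 genes did not pass. Eomes had r = 0.65 with the T cell level (rho = 0.43, adjusted permutation p = 0.120), which fell to −0.02 without sgCda replicates 3 and 5. Klrg1 had r = 0.56 (rho = 0.64) and Klrb1c r = 0.43 (rho = 0.50). Ncr1 (r = −0.11, rho = −0.22) and Xcl1 (r = −0.17, rho = 0.08) showed no relation that passed the test. With Ncr1 in place of the T cell level, 0 of 9 genes passed. Klrb1c came closest (r = 0.67, rho = 0.31, adjusted permutation p = 0.120), and its r was −0.12 without sgNT replicates 2 and 4, the tumors at both ends of Ncr1. Within the 5 sgNT tumors r with Ncr1 was positive for all 9 genes (0.24 for Eomes to 0.90 for Klrg1), and within the 5 sgCda tumors it was negative for 7 of 9, Klrg1 (−0.62), Klrd1 and Klrc1 (both −0.53), Klre1 (−0.49), Tbx21 (−0.47), Klrk1 (−0.43) and Klrb1c (−0.21). Groups of 5 are too small for a firm r, and the difference between them was not tested. Whether r with the T cell level differed between genes was not tested. The 5 tumors with higher muscle transcripts had a summed T cell level of 406 to 839 CPM and the other 5 had 263 to 396 CPM, and with 5 tumors in each set no r within them is given.

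**Figure D4:**
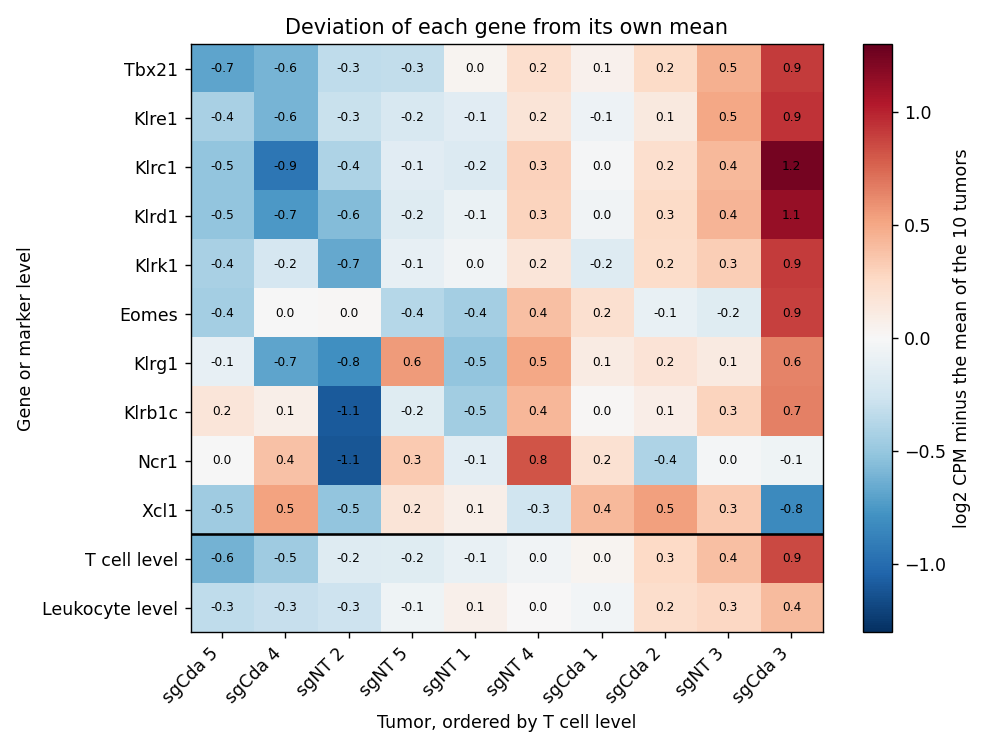
Log2 CPM of each gene minus its mean over the 10 tumors, with tumors ordered by T cell level and genes by their r with it, above the T cell and leukocyte levels. The upper 5 rows change from blue to red along the T cell level, while Ncr1 and Xcl1 do not follow it.

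**Figure D5:**
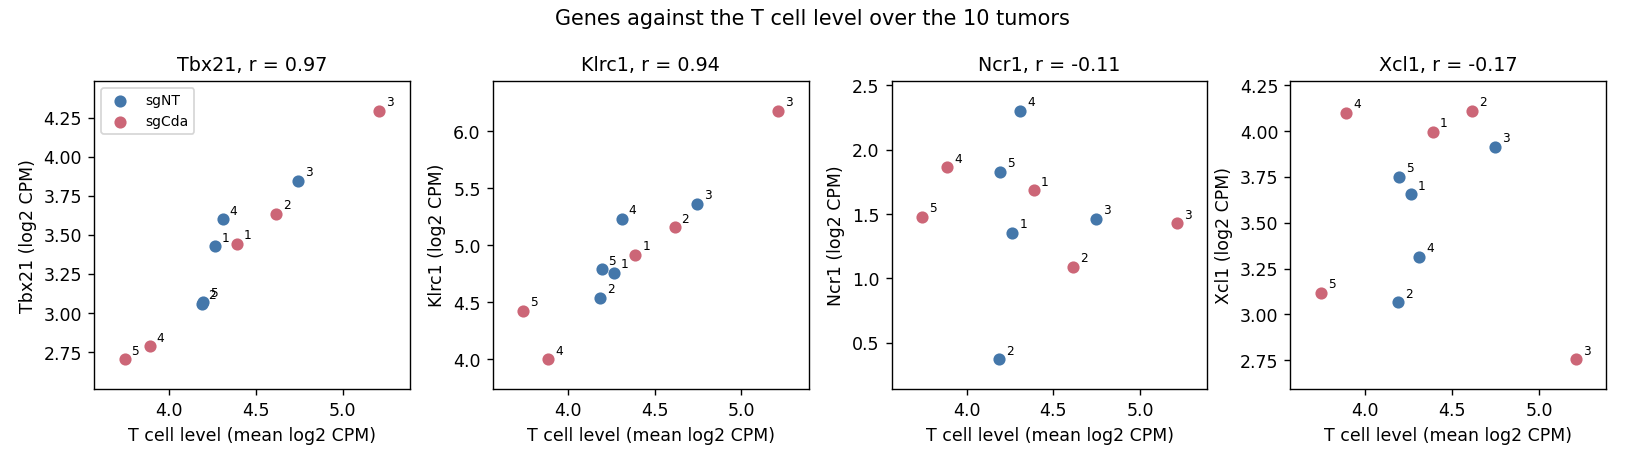
Log2 CPM of Tbx21, Klrc1, Ncr1 and Xcl1 against the T cell level (mean log2 CPM of 16 genes), 1 point per tumor with its replicate number, sgNT in blue and sgCda in red. Tbx21 (r = 0.97) and Klrc1 (r = 0.94) lie along a line, and Ncr1 (r = −0.11) and Xcl1 (r = −0.17) do not.

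Promoter sequences are shown for 3 genes that passed with the T cell level over all 10 tumors (Klrk1, Klrc1, Tbx21) and 2 that did not (Ncr1, Xcl1). Of the former, Klrk1 did not pass without sgCda replicates 3 and 5. They are the bases before the RefSeq gene start (GRCm38.p6), 5′ to 3′ on the strand of the gene, at chr6:129623865-129624114 for Klrk1, chr6:129678974-129679223 for Klrc1, chr11:97115332-97115581 for Tbx21, chr7:4337474-4337723 for Ncr1 and chr1:164935528-164935772 for Xcl1. RefSeq entries were matched for 8 of the 10 genes. Those of Klrb1c and Klre1 were not used, because the base of the stretch farthest from the start lies in an annotated exon of the gene. The sixth usable stretch, that of Eomes, whose r with the T cell level did not pass, held none of the words searched and is not shown. Capitals mark matches on either strand to the words TGTGGT (RUNX factors) and GGAAGT (ETS factors), which were picked after the sequences had been seen.
Klrk1: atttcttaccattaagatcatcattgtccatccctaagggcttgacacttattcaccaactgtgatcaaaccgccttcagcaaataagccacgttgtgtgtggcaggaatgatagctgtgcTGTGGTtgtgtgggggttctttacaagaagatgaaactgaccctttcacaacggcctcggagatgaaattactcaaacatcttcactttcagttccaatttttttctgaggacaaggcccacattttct
Klrc1: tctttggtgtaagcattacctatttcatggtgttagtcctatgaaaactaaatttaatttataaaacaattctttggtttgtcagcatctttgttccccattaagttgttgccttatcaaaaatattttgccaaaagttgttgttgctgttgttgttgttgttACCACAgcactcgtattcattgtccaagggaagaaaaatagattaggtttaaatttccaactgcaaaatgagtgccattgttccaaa
Tbx21: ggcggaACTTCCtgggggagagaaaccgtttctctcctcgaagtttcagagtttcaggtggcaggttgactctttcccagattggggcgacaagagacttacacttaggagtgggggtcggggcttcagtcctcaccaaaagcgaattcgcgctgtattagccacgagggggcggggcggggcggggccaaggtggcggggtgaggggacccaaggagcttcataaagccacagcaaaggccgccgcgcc
Ncr1: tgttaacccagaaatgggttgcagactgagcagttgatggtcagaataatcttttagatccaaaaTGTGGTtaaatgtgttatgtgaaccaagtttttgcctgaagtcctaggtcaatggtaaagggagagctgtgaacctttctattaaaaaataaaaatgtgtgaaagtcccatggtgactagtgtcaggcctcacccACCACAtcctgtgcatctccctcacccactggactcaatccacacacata
Xcl1: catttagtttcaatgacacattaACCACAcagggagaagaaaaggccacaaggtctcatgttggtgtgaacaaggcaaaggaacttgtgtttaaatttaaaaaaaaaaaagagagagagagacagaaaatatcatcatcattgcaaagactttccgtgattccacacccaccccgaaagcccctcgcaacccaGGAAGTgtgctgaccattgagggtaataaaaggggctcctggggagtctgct
The RUNX word occurred 2 times in the Ncr1 stretch, 1 time each in Klrk1, Klrc1 and Xcl1, and not in Tbx21, and the ETS word occurred 1 time each in Tbx21 and Xcl1. Over 32851 mouse promoters, 14.05% held the RUNX word and 19.74% the ETS word in the 250 bases before the start. The T-box word AGGTGT, present in 11.83% of promoters, was on neither strand of these 5 stretches. A match describes the letters only. With Eomes counted, the RUNX word was in 2 of 3 stretches of genes that passed with the T cell level over all 10 tumors, Klrk1 among them. It was in 2 of 3 of those that did not pass.

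By rule, the genes that were most like each pattern were named from Pearson r over the 10 tumors, as a description. Klre1 was nearest to Cd3d, a subunit of the T cell receptor complex (r = 0.99), and Tbx21 to D630039A03Rik and Cd247, the CD3ζ chain (both r = 0.98). Klrd1 was nearest to S1pr4 (0.99) and Ms4a4b (0.98), and Klrc1 to Wdr95 and the chemokine receptor Cxcr6 (both 0.98). Klrk1 was nearest to Tifab (0.98), Klrb1c to Trem3 (0.94), Klrg1 to Rbfa (0.96), Eomes to Synpo2 (0.94) and Ncr1 to Klk1 (0.95). Xcl1 was nearest to Ccl1, another lymphocyte chemokine (0.97). For the mean of the 10 standardised genes the nearest were Trim72 (0.98), Shisa2 (0.97) and Des (0.97), then Ppp1r14c and Cap2 (both 0.96), and Trim72 and Des are genes of striated muscle.

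The receptor of XCL1 was also read in these tumors. Xcr1, carried by conventional type 1 dendritic cells, measured 22.5 to 58.5 CPM in the sgNT group and 25.0 to 76.6 CPM in sgCda tumors, with a log2 fold change of 0.04 (SE 0.32). Its log2 CPM had r = 0.69 with that of Xcl1 (permutation p = 0.0283) and rho = 0.59 (permutation p = 0.0794), in a comparison chosen after the values had been seen. Without sgNT replicate 4 and sgCda replicate 2 the r was 0.66 (exact p = 0.0812), and within groups 0.70 (exact p = 0.0538), so the call did not hold.

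Other genes of the NK cell system were tested in the same fit. Lists of other receptors, adaptors, ligands, cytokines, regulators and effectors, which leave out the 10 genes, held 115 genes, of which 101 could be tested and 0 passed an adjusted p under 0.05 by edgeR. Of the 101 tested, 2 had an unadjusted edgeR p under 0.05, against 2.5% of all genes tested, so their number does not stand out. The median log2 fold change was 0.03. Among 28 of 31 other receptors, 18 had a positive value (median 0.07), and the Ly49 receptor Klra1 reached an unadjusted edgeR p of 0.0380 (log2 fold change 0.66, SE 0.28, 0.442 to 1.08 CPM in the sgNT group and 0.895 to 1.70 CPM in sgCda). Itga2, the integrin known as CD49b, had the lowest value (−0.20, SE 0.32), and Itgam (CD11b), which macrophages share, the highest level at 195 ± 39.3 and 185 ± 59.7 CPM.

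The 16 tested adaptors and signalling proteins had a median of 0.03. DAP12 (Tyrobp), the most abundant and also a myeloid gene, stood at 253 ± 36.0 CPM in the sgNT group and 245 ± 44.0 CPM in sgCda tumors. DAP10 (Hcst), the adaptor of NKG2D, had the highest log2 fold change (0.24, SE 0.30) and Sh2d1b2 (EAT-2B) the lowest (−0.42, SE 0.62), neither past the test. Of the ligands, 9 of 17 could be tested, with a median of 0.03. The Qa-1b gene H2-T23 stood at 308 ± 59.4 CPM in the sgNT group and 282 ± 46.2 CPM in sgCda tumors, and MULT1 (Ulbp1), a ligand of NKG2D, at 11.9 ± 0.833 and 10.4 ± 1.11 CPM (log2 fold change −0.19, SE 0.10, edgeR unadjusted p = 0.0760). Clec2i, a lectin-like NK receptor ligand, had the highest value of this list (0.31, SE 0.21).

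Among 16 tested cytokines and cytokine receptors the median was 0.01. Il15, which NK cells need for survival, had the lowest value (−0.20, SE 0.12) and Il12a the highest (0.62, SE 0.46), while the TGFβ receptor gene Tgfbr2 was the most abundant at 445 ± 85.2 and 431 ± 95.7 CPM. Of 15 tested transcription factors, Gata3 had an unadjusted edgeR p of 0.0101 (log2 fold change 0.49, SE 0.16). It measured 6.44, 6.06, 7.94, 7.76 and 6.96 CPM in the sgNT group and 9.01, 9.76, 9.01, 13.7 and 7.78 CPM in sgCda tumors, and the groups overlapped at 1 sgCda tumor. Zeb2, which macrophages share, was the most abundant of this list at 220 ± 18.0 and 222 ± 23.5 CPM, and Zfp683 (HOBIT) had the lowest value (−0.15, SE 0.28). The 17 effector genes had a median of 0.01, from Gzmc (−0.45, SE 0.69) to Gzmk (0.46, SE 0.60), both granzymes, with Cx3cr1 the most abundant at 179 ± 18.8 and 170 ± 32.3 CPM.

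Markers of the other cells in a tumor are given with the same measures. All 16 T cell genes were tested, and 15 had a positive value, against 52.9% of all genes tested. The median was 0.11, from Cd6 (−0.03, SE 0.24) to Trbc1 (0.28, SE 0.24), with Cd8a at 98.1 ± 21.5 CPM in the sgNT group and 105 ± 65.5 CPM in sgCda tumors. Their summed level was 365 to 571 CPM in the sgNT group and 263 to 839 CPM in sgCda tumors. The 839 CPM was that of sgCda replicate 3, and the other sgCda tumors lay at 263 to 503 CPM. No fold change of the T cell genes without that tumor is given. The 6 genes of type 1 innate lymphoid cells had a median of 0.11, the 8 of conventional type 1 dendritic cells 0.04, the 11 of macrophages −0.01 and 6 pan-leukocyte genes 0.01. Summed leukocyte genes were 1603 to 2313 CPM in the sgNT group and 1508 to 2525 CPM in sgCda tumors. Neutrophil genes had a median of 0.44 over 6 of 7 tested, with 57.2 to 157 CPM summed in sgCda and 60.1 to 112 CPM in sgNT, and skeletal muscle genes 1.66 over 8. Of 4 tested B cell genes, Cd79a had an unadjusted edgeR p of 0.0475 (log2 fold change 0.51, SE 0.23) at 0.628 to 1.496 CPM. No gene of these lists passed the adjusted test, and the part of these cells in the values of the 10 genes was not tested.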

How the data were processed

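Gene counts for 10 tumors were used as the authors deposited them: whole reads per Ensembl gene, not normalized, 1 column per tumor. Per the paper, the authors made stranded libraries from polyadenylated RNA, aligned trimmed reads to GRCm38 (mm10) with TopHat and Bowtie and counted with HTSeq, which drops reads that fit more than 1 place or gene. The strand setting and annotation release are not given in the sources used here. The 5 HTSeq summary rows were left out.

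The 10 genes and all lists were chosen with earlier results of these data known. Counts were filtered with filterByExpr (minimum count 10, total 15), scaled by TMM factors and compared by the quasi-likelihood test of edgeR 4.0.16 (R 4.3.3), with Benjamini-Hochberg adjustment over 15299 genes. The procedure was tested on simulated data. Standard errors and 95% intervals were derived from fold change and F statistic. Log2 CPM used a prior count of 2. Correlations used 100000 permutations (SciPy, two-sided), or exact enumeration for fewer than 10 tumors and within groups.

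Besides the 10 genes and Cda, the named genes of each NK or T cell list are the most abundant, those with an unadjusted p under 0.05 and those with the highest and lowest fold change, and other genes named come from the marker row or from the nearest patterns. Lengths, positions and shared 50-base words come from the GENCODE M21 annotation, and promoters from RefSeq. Alternatives were DESeq2 1.42.0 size factors and Wald test, library totals, no filter, at least 10 counts in every tumor, removal of the 20 highest genes, limma-voom (limma 3.58.1) with and without quality weights, a replicate block, exact permutation, a prior count of 0.5 and leaving out each tumor. The muscle covariate, the 9-gene T cell level and Xcl1 with Xcr1 were added after seeing the data.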

Additional observations from a re-analysis of the deposited data

Results flagged for a closer look

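In 52 sets of 5 values (each gene or list level in 1 group), 6 had a tumor far from the other 4 by Dixon's test at the 95% level, where chance gives about 2.6. Klrb1c in sgCda replicate 3 was at 2.99 log2 CPM, with the others at 2.34 to 2.48. The mean log2 CPM of the other NK cell transcription factors was 4.60 in sgCda replicate 5, below the others at 4.87 to 4.97. The T cell level of sgNT replicate 3 was 4.74, above the others at 4.19 to 4.31. B cell genes averaged 2.62 in sgNT replicate 1, above the others at 1.59 to 1.77. Neutrophil genes averaged 2.51 in sgNT replicate 4, with the others at 3.27 to 3.40, and 2.20 in sgCda replicate 3, with the others at 3.55 to 3.94.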

How the results depend on the processing

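No alternative gave an adjusted call for any of the 10 genes or for any gene, and 0 of the 10 had an unadjusted p under 0.05 in any. Of all genes, 382 had one, 830 without the filter, 719 with quality weights and 280 to 747 when 1 tumor was left out. The median log2 fold change of the 10 genes ran from −0.12 without sgCda replicate 3 or with the muscle covariate to 0.27 without sgCda replicate 5. The labels do not say whether replicate numbers pair the tumors. The deviations of same-numbered tumors correlated over 0.1 in 2 of 5 pairs (r −0.43 to 0.34). Of the 5 sgNT tumors, 2 correlated best with the sgCda tumor of their own number. So few pairs cannot decide whether the tumors were paired. With the replicate block the signs of Ncr1 (0.036), Klre1 (−0.0034) and Tbx21 (−0.023) turned. Signs also turned with limma-voom for Ncr1 (0.023), with quality weights for Ncr1 (0.049), Klrk1 (−0.045), Klrd1 (−0.036), Klrc1 (−0.021), Klre1 (−0.052) and Tbx21 (−0.027), with the muscle covariate for Klrk1 (−0.028), Klrd1 (−0.16), Klrc1 (−0.18), Klre1 (−0.17), Klrg1 (−0.14) and Tbx21 (−0.23), and as differences of mean log2 CPM for Ncr1 (0.044), Klrc1 (−0.00035), Klre1 (−0.0094) and Tbx21 (−0.029). Leaving out 1 tumor gave −0.26 to 0.18 for Ncr1, −0.089 to 0.30 for Klrk1, −0.24 to 0.32 for Klrd1, −0.28 to 0.36 for Klrc1, −0.25 to 0.22 for Klre1, −0.16 to 0.17 for Klrg1 and −0.23 to 0.21 for Tbx21. The causes were not tested.

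Between 4 and 5 genes passed with the T cell level in all settings and 0 with Ncr1. Without the 2 farthest tumors r with the T cell level turned for Eomes (−0.021) and Xcl1 (0.20), and r with Ncr1 for Klrb1c (−0.12), Klrk1 (−0.42), Klrd1 (−0.49), Klrc1 (−0.47), Klre1 (−0.45), Klrg1 (−0.12), Eomes (−0.022) and Tbx21 (−0.50). Leaving out 1 tumor gave r with Ncr1 of −0.22 to 0.46 for Klrk1, −0.22 to 0.30 for Klrd1, −0.20 to 0.24 for Klrc1, −0.23 to 0.17 for Klre1, −0.056 to 0.26 for Eomes, −0.24 to 0.15 for Tbx21 and −0.085 to 0.41 for Xcl1, and −0.43 to 0.45 for Xcl1 with the T cell level.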
